A study of Mus musculus with 16 samples.

Results

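The genes of the extracellular matrix and of the proteases that cut it were followed through 16 RNA sequencing libraries of mouse dorsal hippocampus. They were chosen by symbol: every collagen chain, laminin chain, ADAMTS protease, matrix metalloproteinase (MMP) and hyaluronan synthase, with the lecticans, tenascins and link proteins of the perineuronal net and fibronectin. The symbols matched 90 of the 16907 genes in the deposited expression files. The deposited counts named 108 genes by the same rule, and the other 18 had been removed by the authors' filter on low counts. All 90 are annotated as protein-coding, and all 90 were among the 16899 genes tested.

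The mice had received a recombinant adeno-associated virus in the dorsal hippocampus that expressed GFP in the controls and an added copy of Dnmt3a2, a short form of the de novo DNA methyltransferase Dnmt3a, in the others. All groups were trained 3 weeks later in contextual fear conditioning, where a chamber becomes paired with a shock, and tissue was dissected 1 day or 5 days after it. The 4 groups of 4 libraries are called Control_1d, Dnmt3a2_1d, Control_5d and Dnmt3a2_5d. No group without virus or without conditioning was analysed here, and the labels give neither the promoter of the virus, nor the strain or age of the mice, nor the share of cells reached. Whether libraries stand for separate mice is not stated in the labels, so p-values speak only to the spread between these libraries, which may be technical.

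The brain has little fibrous collagen. Its matrix is built on hyaluronan, to which the lecticans (aggrecan, brevican, neurocan and versican) bind, held by link proteins and joined to each other by tenascins, and around parvalbumin interneurons and some pyramidal neurons this lattice condenses into perineuronal nets that restrain synaptic plasticity. Blood vessels and the brain surface are wrapped in a basement membrane, a sheet of laminin and collagen IV networks. MMPs and ADAMTS proteases cleave these proteins, several ADAMTS members cutting lecticans, and are held in check by TIMPs.

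Library totals ran from 28.6 to 30.0 M estimated counts, so that a single count was worth 0.0329 to 0.0352 CPM (counts after scaling libraries to the same total). Dnmt3a stood at 32.71 to 37.69 CPM in the control libraries and at 623.2 to 1249 CPM in the Dnmt3a2 libraries. Replicate 1 of Dnmt3a2_1d and replicate 1 of Dnmt3a2_5d stood apart: 15 markers of the choroid plexus, the secretory tissue of the ventricles that borders the hippocampus, summed to 1200 and 1868 CPM there and to 134 to 378.1 CPM in the other 14 libraries. These same libraries and replicate 1 of Control_1d held the highest sums of 20 interferon response genes, 157 to 232 CPM against 89.9 to 120 CPM elsewhere. Hippocampal neuron markers were present in every library, with 10 CA1 pyramidal markers summing to 1310 to 1560 CPM. Of 10 dentate granule markers edgeR called 1 at 1 day, 2 at 5 days and 3 averaged, and averaged it called 2 of 10 CA1 and 1 of 10 astrocyte markers. Of 10 CA2 and CA3 markers it called 0 at 1 day, 1 at 5 days and 1 averaged. Over all genes it called 0.0888% at 1 day, 0.32% at 5 days and 1.43% averaged, so these shares of the lists are larger. Averaged changes were above 0 for 4 of 10 dentate, 6 of 10 CA1, 7 of 10 astrocyte and 8 of 10 CA2 and CA3 markers. The part of these cells in the matrix results was not tested. In bulk tissue, fewer cells of a type and less RNA per cell cannot be told apart.

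The matrix transcripts summed to 1800 CPM on average (1664 to 1962 CPM over the 16 libraries), and 5 genes made up 66.8% of that sum: Mmp17, Ncan, Bcan, Tnr and Hapln4. Of the 90 genes, 20 had a mean under 1 CPM, 48 lay from 1 to 10 CPM, 17 from 10 to 100 CPM and 5 above. To compare genes, CPM was divided by the length of the longest annotated transcript in kb. On that scale Bcan (brevican) led with 80.3 CPM per kb, followed by Mmp17 with 55.3, Ncan (neurocan) with 36.0, Hapln4 (a link protein) with 30.5, Tnr (tenascin-R) with 18.7 and Mmp24 with 14.4 CPM per kb. Every other gene lay below 6 CPM per kb, from Mmp15 at 5.70 and Col25a1 at 5.27 down to Col6a6 at 0.0308 CPM per kb. The genes that the authors' filter removed had means of at most 0.202 CPM. Among them Mmp7, Mmp8, Mmp10 and Mmp20 were listed at 0 counts in all 16 libraries, and the collagenase Mmp13, the stromelysin Mmp3 and the hyaluronan synthases Has1 and Has2 were too low to test. The others removed were Mmp12, Mmp21, Mmp27, Adamts12, Adamts19, Col9a1, Col10a1, Col17a1, Col24a1 and Col28a1. Of the 90 genes tested, 14 overlap a neighbouring gene in position.

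**Figure D1:**
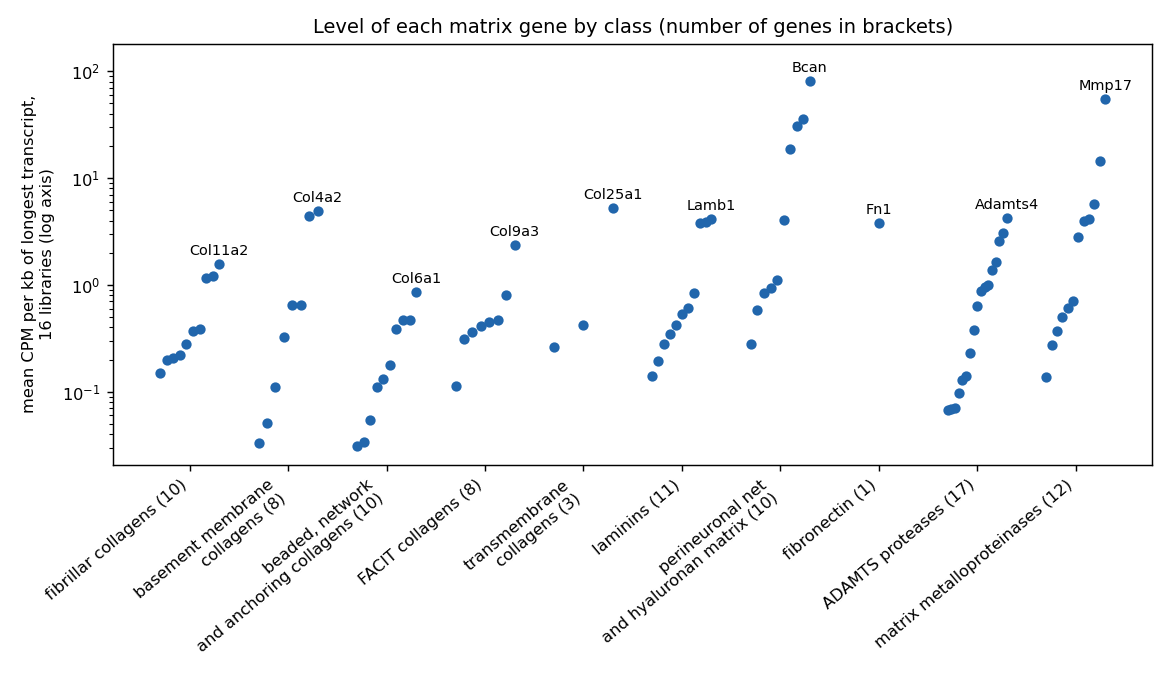
Mean CPM per kb of the longest transcript over 16 libraries (log axis) for each of the 90 matrix genes, one point per gene, grouped by class with the leading gene named. The net genes Bcan, Ncan, Hapln4 and Tnr and the proteases Mmp17 and Mmp24 lie above 10, and every collagen, laminin and ADAMTS gene lies below 6.

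The main comparison asked which matrix transcripts differed with Dnmt3a2. Averaged over both days, 1 of the 90 genes passed the test: Mmp2 fell in the Dnmt3a2 libraries. Over all 16899 genes tested, 1.43% were called in this comparison and 0.722% were called lower (edgeR's quasi-likelihood test, Benjamini-Hochberg adjusted p under 0.05), and 1 of 90 is 1.11%. At 1 day edgeR called 0 of the 90 genes, where it called 0.0888% of all genes, and at 5 days it again called 0 of 90, where it called 0.32% of all genes. DESeq2's Wald test, over the genes to which it gave an adjusted p, called 1 of 73 matrix genes at 1 day (0.445% of all such genes), 0 of 84 at 5 days (0.899%) and 3 of 87 in the average (3.09%). The 3 were Mmp2, Tnr and Col11a1, a share near that of all genes. Limma called 0, 0 and 1 of the 90, beside 0.0946%, 0.337% and 1.52% of all genes.

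At an unadjusted p under 0.05, edgeR picked out 3 of 90 genes at 1 day, 3.33% against 7.17% of all genes. It picked out 13 at 5 days (14.4% against 8.01%) and 17 averaged over both days (18.9% against 12.1%). The 17 comprised 14 with a positive change (6.19% of all genes) and 3 with a negative one (5.94% of all genes), namely Mmp2, Has3 and Lamb3. These shares describe the class and were not tested against other genes. Without the 2 libraries rich in choroid plexus transcripts, 4 of 90 had an unadjusted p under 0.05 at 1 day, 10 at 5 days and 15 averaged. Of the 17036 genes then tested, 1074, 1669 and 2031 had such a p. The changes of the 90 genes had a median of 0.06 log2 at 1 day, 0.10 at 5 days and 0.08 averaged, beside medians of 0.003, 0.008 and 0.006 over all genes. They were above 0 for 60, 61 and 61 of the 90 genes, where 50.9%, 52.8% and 52.6% of all genes were above 0. Without the 2 libraries rich in choroid plexus transcripts these counts were 54, 50 and 57 of 90, and the medians 0.035, 0.0716 and 0.0405. The same direction at both days was found for 61 of the 90 genes (67.8%), as it was for 62.7% of all genes. The median size of change without regard to sign was 0.17 log2 at each day, against 0.08 over all genes. Between 1 and 5 days it was 0.13 against 0.07 in control libraries, and 0.16 against 0.10 in Dnmt3a2 libraries. The larger size was thus not particular to the comparison of Dnmt3a2 with control.

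**Figure D2:**
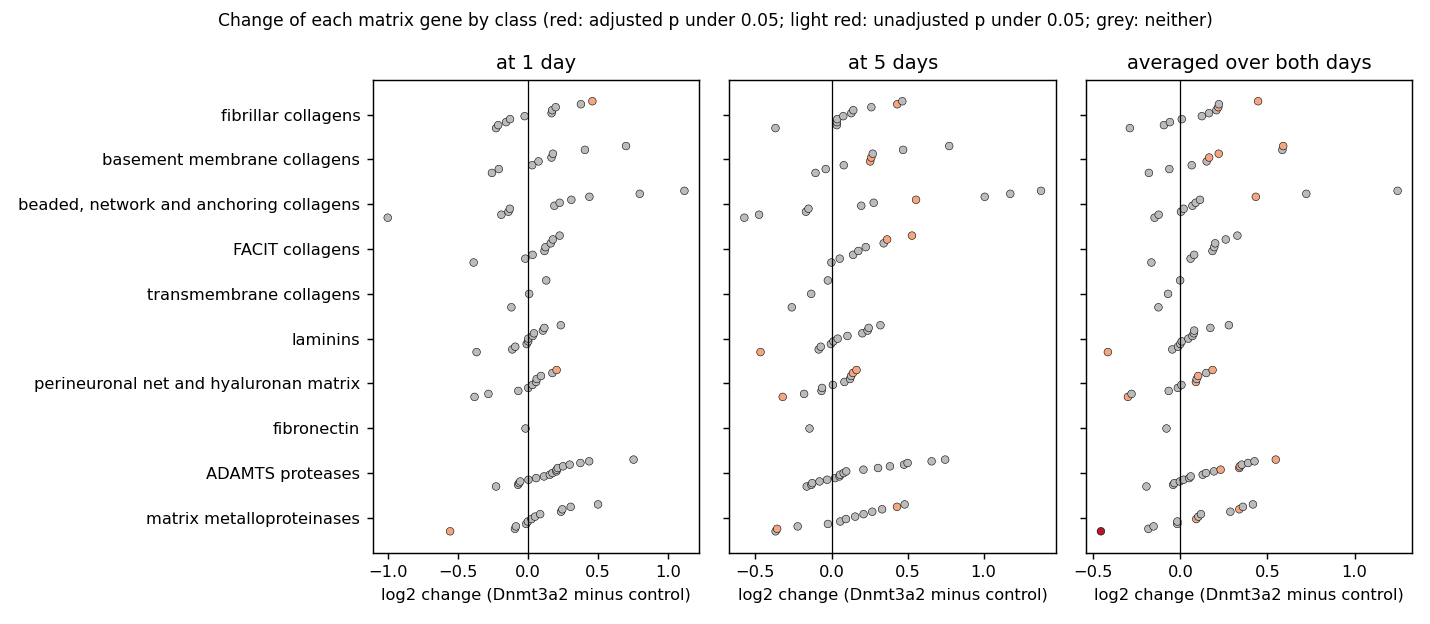
Log2 change (Dnmt3a2 minus control) of each of the 90 genes by class, with a panel for 1 day, for 5 days and for their average and one point per gene. Mmp2, at -0.46 in the averaged panel, is the only point in dark red (adjusted p under 0.05), light red points passed an unadjusted p of 0.05, and most genes lie within 0.5 of 0.

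Mmp2 (ENSMUSG00000031740, chromosome 8, 92827291 to 92853420, GRCm38) encodes gelatinase A, a secreted metalloproteinase that cuts denatured collagen and collagen IV. At 1 day it stood at 16.11, 14.26, 14.05 and 14.47 CPM in the control libraries (replicates 1 to 4) and at 6.768, 12.39, 10.82 and 10.12 CPM in the Dnmt3a2 libraries. The groups did not overlap, and replicate 1 of Dnmt3a2_1d was the lowest of the 16 libraries. At 5 days it stood at 14.63, 12.42, 17.00 and 13.93 CPM in the control libraries and at 13.54, 10.14, 10.78 and 10.79 CPM with Dnmt3a2, and here 1 Dnmt3a2 library lay among the controls. Means were 14.7 ± 0.942 and 10.02 ± 2.37 CPM at 1 day (SD, n = 4 as in all groups), and 14.5 ± 1.91 and 11.3 ± 1.52 CPM at 5 days. The change was -0.55 log2 at 1 day (SE 0.14, edgeR adjusted p = 0.218) and -0.36 at 5 days (SE 0.14, edgeR adjusted p = 0.467). Averaged over both days it was -0.46 (SE 0.10, edgeR adjusted p = 0.0260), a ratio of 0.729. With CPM values permuted between the groups (exact permutation test, two-sided, 70 regroupings), p was 0.0286 at 1 day, the smallest possible, and 0.0571 at 5 days. Mmp2 was given this test because it had been called in these same libraries. Groups that do not overlap, as at 1 day, always give the smallest p, so the test adds no separate support. The averaged call was lost without Control_5d replicate 1, 3 or 4 (edgeR adjusted p = 0.0535, 0.0501 and 0.050001) and without Dnmt3a2_5d replicate 2, 3 or 4 (0.0580, 0.0566 and 0.0626). The change there stayed between -0.41 and -0.47 log2. A block for the replicate number also ended the call, with an edgeR adjusted p just over the threshold. Without the 2 choroid-rich libraries the call was kept at -0.43 (edgeR adjusted p = 0.00252), and Mmp2 was then called at 5 days also, at -0.46 (edgeR adjusted p = 0.0450). At 1 day Mmp2 was not called in that fit, which left out its lowest library, Dnmt3a2_1d replicate 1. The change at 1 day ran from -0.673 to -0.406 log2 with each library left out, and from -0.583 to -0.36 in the other alternatives. In brain, Mmp2 is known from vessel-associated and meningeal cells as well as glia. The fibroblast, endothelial and pericyte marker lists had 0 genes called, and their summed levels overlapped between Dnmt3a2 and control. Fibroblast markers summed to 290 to 366 against 249 to 450 CPM at 1 day, and to 273 to 382 against 249 to 333 CPM at 5 days. Of 13 fibroblast markers tested, 4 were above 0 at 1 day, 6 at 5 days and 5 averaged (median -0.0456 log2). Averaged changes were above 0 for 7 of 10 endothelial and 6 of 10 pericyte and smooth muscle markers. The part of these cells in the Mmp2 values was not tested.

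The averaged changes of the 12 MMPs ran from -0.46 to 0.42 log2, with 7 of 12 above 0. Apart from Mmp2 the family was led by its membrane-anchored members. Mmp17, tethered by a lipid anchor, had the largest CPM of the 90 genes. It stood at 341.9, 357.1, 339 and 352.5 CPM in Control_1d and at 377.3, 347.4, 364.5 and 388.8 CPM in Dnmt3a2_1d. At 5 days Mmp17 stood at 328.4, 315.2, 372.7 and 343.8 CPM in control and 368, 350.1, 362 and 372.4 CPM with Dnmt3a2. The groups overlapped at each day, and the averaged change was 0.09 log2 (SE 0.04, edgeR adjusted p = 0.275). Mmp17 was also the steadiest of the 70 genes with at least 1 CPM, with a coefficient of variation of 5.39% over the 16 libraries against a median of 17.4%. The transmembrane proteases Mmp24 (62.1 CPM on average) and Mmp15 (29.3 CPM), the former known from neurons, each had an averaged change of -0.02 log2 (edgeR adjusted p = 0.931 and 0.949). Mmp24 overlaps a gene on the other strand, and no source used here says whether counting used strand. Mmp9, the gelatinase most often tied to synaptic plasticity, was low at 1.17 CPM (0.5496 to 1.988 CPM), with an averaged change of -0.15 (SE 0.21, edgeR adjusted p = 0.827).

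Mmp14 (ENSMUSG00000000957, chromosome 14, 54431612 to 54445364) encodes the transmembrane protease that activates pro-MMP2 at the cell surface. In Control_1d it stood at 11.27, 13.38, 9.652 and 13.08 CPM, and in Dnmt3a2_1d at 20.10, 12.60, 12.26 and 11.23 CPM, with replicate 1 far above the rest. In Control_5d it stood at 10.42, 9.728, 13.03 and 9.462 CPM and in Dnmt3a2_5d at 16.58, 13.39, 13.15 and 14.32 CPM, and these groups did not overlap. The change was 0.25 log2 at 1 day (SE 0.16, edgeR adjusted p = 0.827), 0.43 at 5 days (SE 0.16, edgeR adjusted p = 0.455) and 0.34 averaged (SE 0.12, edgeR adjusted p = 0.190). The 2 highest values came from the choroid-rich libraries, and without them the change was 0.02 at 1 day, 0.35 at 5 days and 0.19 averaged. Without the 3 interferon-rich libraries it was -0.00077 at 1 day.

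**Figure D3:**
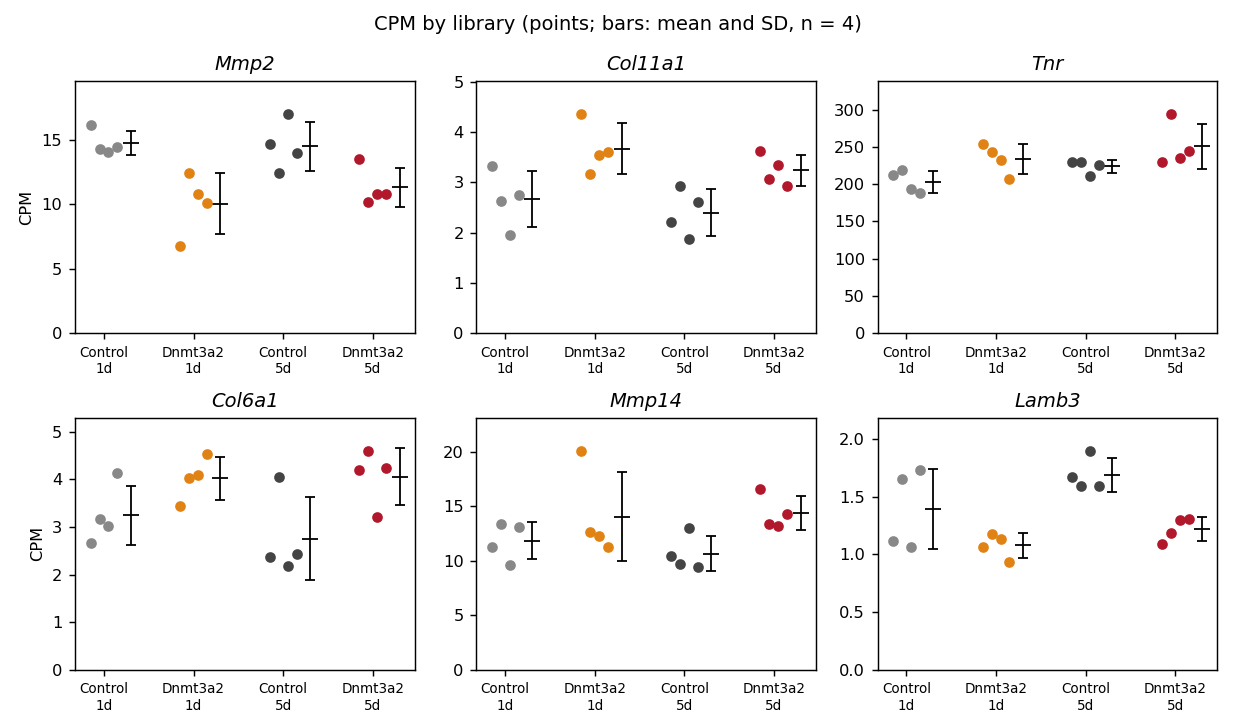
CPM of 6 genes with a small p in the averaged comparison (Mmp2, Col11a1, Tnr, Col6a1, Mmp14 and Lamb3) in each library, as points by group, with the mean and SD of 4 libraries beside them. The Mmp2 groups do not overlap at 1 day, and the Col11a1, Mmp14 and Lamb3 groups do not overlap at 5 days.

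Perineuronal net and hyaluronan genes were the most abundant class, with summed levels of 856 ± 37.7 CPM in Control_1d, 919 ± 54.6 in Dnmt3a2_1d, 883 ± 25.6 in Control_5d and 959 ± 33.1 CPM in Dnmt3a2_5d. Ncan, Bcan and Tnr made up 81.7% of the sum. The averaged changes ran from -0.30 to 0.18 log2, with 6 of 10 above 0. None of the 10 genes passed the edgeR test in any comparison, and 4 had an unadjusted p under 0.05 in the averaged one: Tnr, Bcan and Ncan with positive and Has3 with negative values. DESeq2's Wald test called Tnr in the averaged comparison, and limma called none of the 10.

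Tnr (ENSMUSG00000015829, chromosome 1, 159523769 to 159931729) encodes tenascin-R, which crosslinks lecticans in the net. In Control_1d it stood at 212.4, 218.7, 192.9 and 188.1 CPM, and in Dnmt3a2_1d at 253.7, 243.5, 232.5 and 206.5 CPM. In Control_5d it stood at 229.5, 229.7, 210.7 and 225.1 CPM, and in Dnmt3a2_5d at 229.3, 294.4, 234.8 and 244.6 CPM. At each day the Dnmt3a2 values were mostly above the controls, with 1 library of Dnmt3a2_1d and 1 of Dnmt3a2_5d inside the control range. The change was 0.21 log2 at 1 day (SE 0.08, edgeR adjusted p = 0.489), 0.16 at 5 days (SE 0.08, edgeR adjusted p = 0.602) and 0.18 averaged (SE 0.05, edgeR adjusted p = 0.0984). Without Dnmt3a2_1d replicate 4, Tnr joined Mmp2 among the genes called. With a block for the replicate number, Tnr was called (edgeR adjusted p = 0.0357) and Mmp2 was not.

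Ncan (ENSMUSG00000002341), the secreted lectican of neurons and astrocytes, stood at 260.2, 249, 236.2 and 219.6 CPM in Control_1d and at 279.8, 251.4, 248 and 250.6 CPM in Dnmt3a2_1d. In Control_5d it stood at 259.8, 259.2, 261.8 and 261 CPM, the tightest group, and in Dnmt3a2_5d at 272.4, 290.8, 270.4 and 271.3 CPM. The groups did not overlap at 5 days, where the change was 0.09 log2 (SE 0.05, edgeR adjusted p = 0.776). Bcan (ENSMUSG00000004892) had means of 248 ± 13.3 and 260 ± 9.503 CPM at 1 day and 238 ± 21.2 and 263 ± 9.80 CPM at 5 days, in control and Dnmt3a2 libraries. Its averaged change was 0.10 (SE 0.04, edgeR adjusted p = 0.294), and its 2 highest libraries were the choroid-rich ones.

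Has3 (ENSMUSG00000031910), the only hyaluronan synthase that passed the filter, went the other way in value. It stood at 3.558, 4.179, 4.671 and 3.504 CPM in Control_1d against 3.367, 3.332, 3.410 and 2.981 CPM in Dnmt3a2_1d, which did not overlap. In Control_5d it stood at 3.541, 4.150, 3.028 and 3.501 CPM, and in Dnmt3a2_5d at 2.741, 3.521, 2.536 and 2.589 CPM, with 1 library among the controls. The averaged change was -0.30 log2 (SE 0.10, edgeR adjusted p = 0.178). Has3 overlaps Chtf8 on the other strand.

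The remaining net genes had no averaged change with an unadjusted p under 0.05. Acan (aggrecan, the lectican that marks the nets of parvalbumin interneurons) had 6.12 CPM on average and an averaged change of -0.01 log2 (SE 0.12, edgeR adjusted p = 0.975). Its means were 5.88 ± 0.869, 6.01 ± 1.24, 6.44 ± 1.76 and 6.16 ± 0.447 CPM in Control_1d, Dnmt3a2_1d, Control_5d and Dnmt3a2_5d. Vcan (versican) had -0.07, Hapln1 0.01, Hapln4 0.09, Hapln3 -0.28 and Tnc (tenascin-C) 0.15 log2, with SEs of 0.08, 0.06, 0.07, 0.18 and 0.10. A list of 10 interneuron markers, Pvalb among them, summed to means of 906, 846, 923 and 898 CPM in the same order of groups, with 0 genes called. Of these 10 markers, 2 were above 0 at 1 day, 3 at 5 days and 2 averaged (median -0.0591 log2). Their part in the net values was not tested.

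**Figure D4:**
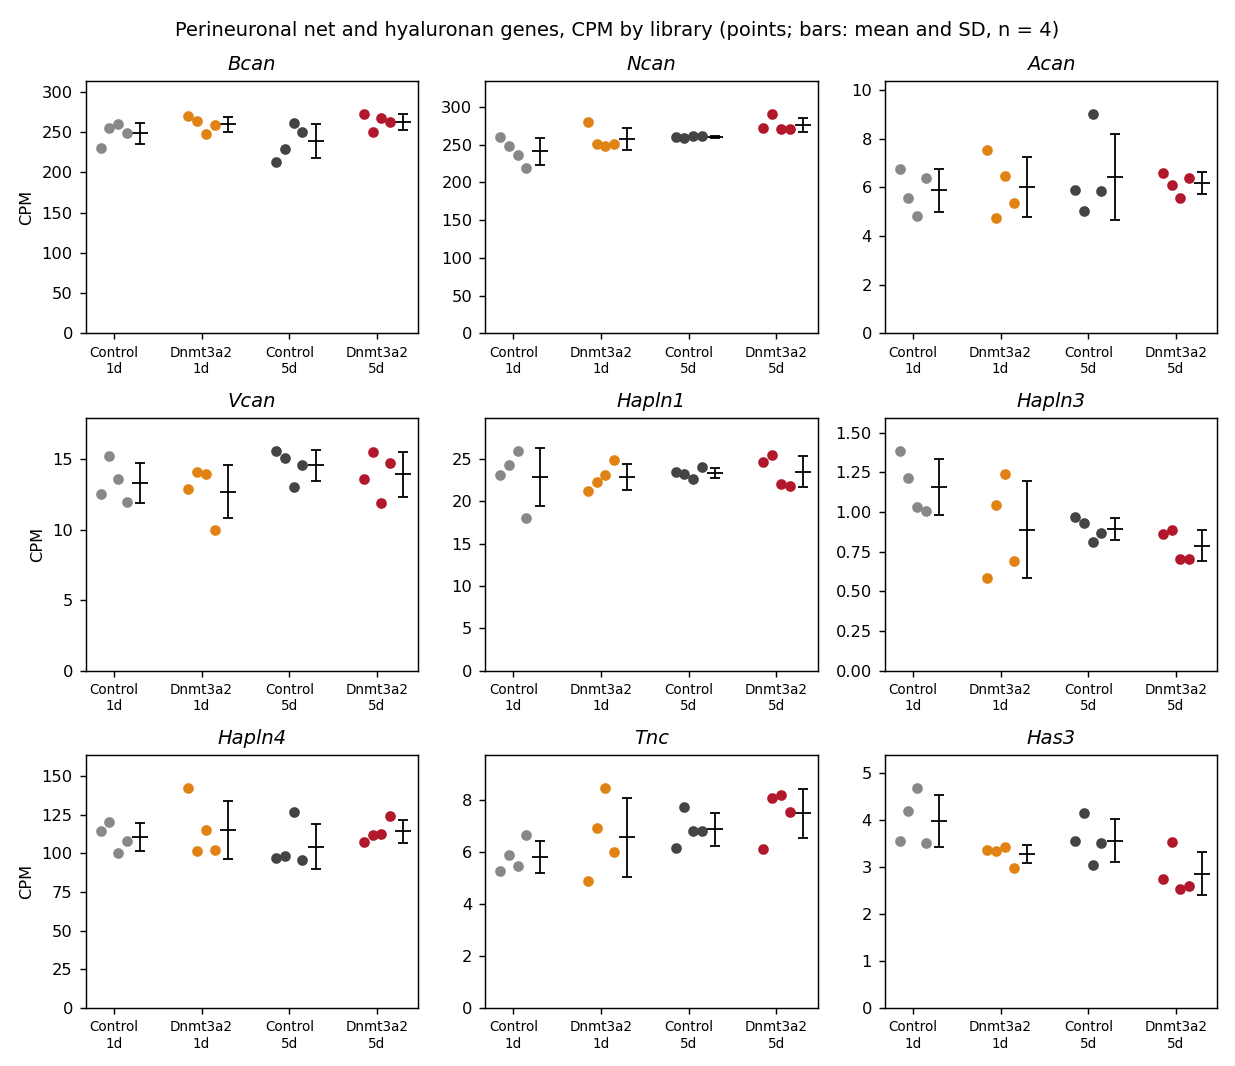
CPM of 9 perineuronal net and hyaluronan genes in each library, as points by group, with the mean and SD of 4 libraries. Ncan does not overlap between the groups at 5 days and Has3 does not at 1 day; Acan and Hapln1 have nearly equal means in all 4 groups.

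Link proteins and lecticans lie side by side in the genome. Hapln4 ends 2222 bp from Ncan on chromosome 8, Hapln3 lies 2 bp from Acan on chromosome 7, Hapln1 lies 43659 bp from Vcan on chromosome 13, and Hapln2 lies 21519 bp from Bcan on chromosome 3. The neighbours differed in level per length: 30.5 and 36.0 CPM per kb for Hapln4 and Ncan, 4.05 and 1.10 for Hapln1 and Vcan, and 0.278 and 0.833 for Hapln3 and Acan. Collagen IV genes are paired likewise, head to head, with Col4a1 and Col4a2 overlapping by 22 bp, Col4a3 and Col4a4 71 bp apart, and Col4a5 and Col4a6 1308 bp apart. The averaged changes were 0.22 and 0.17 log2 for Col4a1 and Col4a2, 0.59 and 0.59 for Col4a3 and Col4a4, and 0.07 and 0.15 for Col4a5 and Col4a6. Col4a3 and Col4a4 were highest in the 2 choroid-rich libraries, and without these the changes were -0.11 (SE 0.48) and 0.24 (SE 0.27). None of these 6 genes was called.

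Basement membrane genes had summed levels of 69.4 ± 9.78, 74.3 ± 5.09, 65.6 ± 7.13 and 76.7 ± 5.96 CPM for the 8 collagens, in the order Control_1d, Dnmt3a2_1d, Control_5d and Dnmt3a2_5d. The 11 laminins summed to 99.5 ± 8.22, 102 ± 4.85, 101 ± 8.23 and 105 ± 6.96 CPM. Averaged changes were above 0 for 6 of 8 collagens (-0.18 to 0.59 log2) and 7 of 11 laminins (-0.42 to 0.28 log2), and none was called. Col4a2 (ENSMUSG00000031503, chromosome 8, 11312805 to 11449287) encodes a chain of the collagen IV network of vessels. It stood at 30.60, 30.54, 27.29 and 26.24 CPM in Control_5d and at 33.52, 33.89, 36.44 and 32.95 CPM in Dnmt3a2_5d, which did not overlap. At 1 day it stood at 31.66, 33.50, 25.49 and 33.03 CPM in control and 34.80, 32.91, 34.27 and 28.42 CPM with Dnmt3a2, and the groups overlapped. The change was 0.25 log2 at 5 days (SE 0.08, edgeR adjusted p = 0.329) and 0.17 averaged (SE 0.06, edgeR adjusted p = 0.215). Its partner chain Col4a1 gave 0.26 at 5 days (SE 0.11, edgeR adjusted p = 0.522) and 0.22 averaged (SE 0.08, edgeR adjusted p = 0.201). Col15a1, a collagen of the outer vascular basement membrane, gave -0.18 averaged (SE 0.13, edgeR adjusted p = 0.634). Endothelial markers summed to 119 to 182 CPM in Control_5d and 118 to 191 CPM in Dnmt3a2_5d, and pericyte and smooth muscle markers to 116 to 150 and 126 to 151 CPM.

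The laminin chains of the common vascular trimers, Lamb1, Lamb2 and Lamc1, made up 73.7% of the laminin sum at 4.17, 3.91 and 3.78 CPM per kb. Their averaged changes were 0.07, 0.01 and 0.08 log2, with SEs of 0.04, 0.06 and 0.06. Lama5, an α chain of vessel laminins, gave 0.08 (SE 0.10). Lamb3, a chain best known from epithelia, was low. It stood at 1.670, 1.594, 1.901 and 1.594 CPM in Control_5d and at 1.090, 1.185, 1.301 and 1.311 CPM in Dnmt3a2_5d, which did not overlap. At 1 day Lamb3 stood at 1.12, 1.651, 1.065 and 1.735 CPM in control and 1.065, 1.180, 1.137 and 0.9359 CPM with Dnmt3a2. The averaged change was -0.42 log2 (SE 0.14, edgeR adjusted p = 0.177). Lamb3 overlaps Hsd11b1 and G0s2 on the other strand and Gm37691 on the same strand, so reads of these genes may not be separable. Fn1 (fibronectin) had 31.6 CPM on average and varied between 23.13 and 39.43 CPM over the libraries, with an averaged change of -0.08 (SE 0.13, edgeR adjusted p = 0.853).

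Among fibrillar collagens Col11a2, Col1a1 and Col1a2 were the most abundant, at 1.58, 1.22 and 1.17 CPM per kb. Averaged changes of the 10 genes ran from -0.29 to 0.45 log2, with 7 above 0 and none called. Col11a1 (ENSMUSG00000027966, chromosome 3, 114030540 to 114220718), a chain of the minor fibrillar collagen XI, had the smallest unadjusted p of the 90 genes after Mmp2 in the averaged comparison. It stood at 3.327, 2.629, 1.958 and 2.741 CPM in Control_1d and at 4.363, 3.159, 3.548 and 3.605 CPM in Dnmt3a2_1d. In Control_5d it stood at 2.205, 2.922, 1.866 and 2.599 CPM and in Dnmt3a2_5d at 3.632, 3.060, 3.337 and 2.925 CPM. The groups did not overlap at 5 days, by a margin of 2.922 to 2.925 CPM, and 1 Dnmt3a2 library lay inside the control range at 1 day. The change was 0.46 log2 at 1 day (SE 0.17, edgeR adjusted p = 0.494), 0.43 at 5 days (SE 0.17, edgeR adjusted p = 0.480) and 0.45 averaged (SE 0.12, edgeR adjusted p = 0.0740). DESeq2's Wald test called it in the averaged comparison, and so did edgeR without Control_1d replicate 1. The 2 choroid-rich libraries held its highest values, and without them the averaged change was 0.37 (edgeR adjusted p = 0.198). Col11a2 gave 0.22 (SE 0.09, edgeR adjusted p = 0.344), while Col1a1 and Col1a2, the chains of collagen I, gave -0.09 and 0.01 (SE 0.14 and 0.12) and Col2a1, of cartilage collagen, gave 0.21 (SE 0.20).

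Dnmt3a2 methylates cytosines in CpG dinucleotides, so the promoter sequences of Tnr, Col11a1 and Mmp14 are shown with each CpG in capitals. They are 3 examples from the net, fibrillar collagen and protease classes described here, chosen after the values were seen. The table of RefSeq promoters (GRCm38.p6) held 59 of the 90 genes, in 64 windows, and not Mmp2. Each sequence is the 250 bases before the annotated start, 5′ to 3′ on the strand of the gene. DNA methylation was not measured in these files, and the count of CpGs is a description only.
Tnr (chr1:159523519-159523768, + strand): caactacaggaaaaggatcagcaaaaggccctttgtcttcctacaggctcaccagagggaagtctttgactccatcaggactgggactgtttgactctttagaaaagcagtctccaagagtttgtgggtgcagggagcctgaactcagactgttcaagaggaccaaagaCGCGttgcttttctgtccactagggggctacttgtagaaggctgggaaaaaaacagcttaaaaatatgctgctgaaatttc
Col11a1 (chr3:114030290-114030539, + strand): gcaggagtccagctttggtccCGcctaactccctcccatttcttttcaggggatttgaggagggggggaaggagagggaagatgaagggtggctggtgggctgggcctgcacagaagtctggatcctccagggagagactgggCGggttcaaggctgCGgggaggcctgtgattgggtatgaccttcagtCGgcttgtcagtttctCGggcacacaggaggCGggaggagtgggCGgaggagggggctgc
Mmp14 (chr14:54431348-54431597, + strand): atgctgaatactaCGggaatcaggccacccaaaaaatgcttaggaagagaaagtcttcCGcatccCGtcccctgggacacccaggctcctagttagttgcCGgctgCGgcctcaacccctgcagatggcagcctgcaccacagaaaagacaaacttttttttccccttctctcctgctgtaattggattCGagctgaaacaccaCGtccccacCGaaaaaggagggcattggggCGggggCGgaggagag

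The Tnr window held 2 CpGs, that of Col11a1 held 7 and that of Mmp14 held 10. Over the 64 windows of matrix genes the median was 11.5 CpGs (0 to 35), and 64.1% held 10 or more. Over all 32841 windows of the table, non-coding genes included, the median was 6 CpGs and 37.8% held 10 or more, and 92.1% held at least 1. ADAMTS promoters were the richest of the larger classes, with a median of 22 CpGs in 9 windows, all 8 MMP windows held 10 or more, and laminin windows had a median of 3 CpGs in 6 windows. The Tnr promoter was poor in CpGs beside most matrix promoters in the table.

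Beaded, network and anchoring collagens were low, summing to 12.3 ± 1.41, 13.9 ± 2.45, 11.3 ± 1.83 and 14.5 ± 3.96 CPM in Control_1d, Dnmt3a2_1d, Control_5d and Dnmt3a2_5d. Col6a1 (ENSMUSG00000001119, chromosome 10, 76708792 to 76726168), a chain of the microfibrillar collagen VI, led them. Of the 10 genes, 8 had an averaged change above 0, from -0.15 to 1.25 log2 over the class, and none was called. Col6a1 stood at 2.669, 3.168, 3.023 and 4.129 CPM in Control_1d and at 3.435, 4.026, 4.099 and 4.541 CPM in Dnmt3a2_1d. In Control_5d it stood at 2.372, 4.050, 2.183 and 2.426 CPM and in Dnmt3a2_5d at 4.194, 4.607, 3.204 and 4.237 CPM. Replicate 2 of Control_5d lay among the Dnmt3a2 libraries and far above its own group. The averaged change was 0.43 log2 (SE 0.13, edgeR adjusted p = 0.120), and without Control_5d replicate 2 it was called. Its partner Col6a2, needed for the same trimer and lying 85161 bp away, had an averaged change of 0.003 (SE 0.14, edgeR adjusted p = 0.995). Col6a5 was near the detection limit, from 0 to 0.7397 CPM. It gave -0.9995 log2 at 1 day (SE 0.63) and 1.18 at 5 days (SE 0.57), neither called, and the difference between days was 2.17 (edgeR adjusted p = 1).

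Collagen VIII varied most between libraries. Col8a1 stood at 2.164 CPM in replicate 1 of Dnmt3a2_1d and 3.599 CPM in replicate 1 of Dnmt3a2_5d, and at 0.1318 to 0.79 CPM in the other 14 libraries. Col8a2 stood at 4.569 and 5.911 CPM in these libraries and at 0.2777 to 2.455 CPM in the others, with a coefficient of variation of 91.8%. These are the choroid-rich libraries. The averaged change of Col8a1 was 1.25 log2 (SE 0.72, edgeR adjusted p = 0.533), and without these libraries it was -0.48 (edgeR adjusted p = 0.684). Of the 90 genes, 9 (10%) had their 2 highest values of the 16 libraries in these 2, as did 3.72% of all genes: Bcan, Col11a1, Col4a3, Col4a4, Col8a1, Col8a2, Col9a3, Mmp14 and Mmp25. All 15 choroid plexus markers had positive changes at each day, with 0 called. Fits were repeated with a score of these markers as covariate and without these 2 libraries, but the cause of the high values was not tested.

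**Figure D5:**
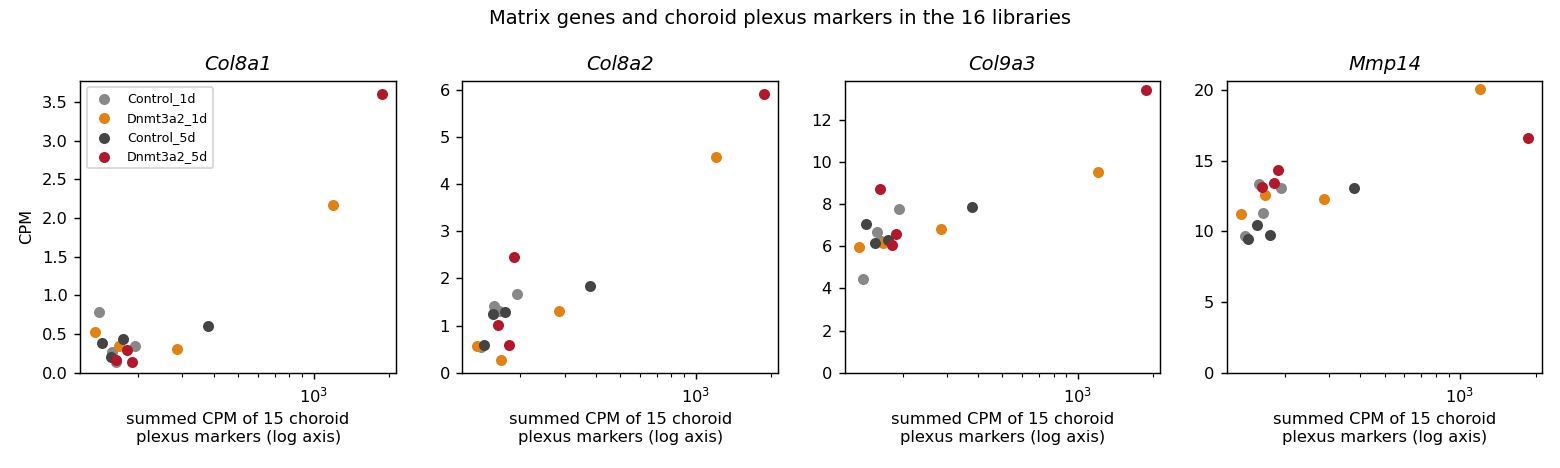
CPM of Col8a1, Col8a2, Col9a3 and Mmp14 in each of the 16 libraries (one point per library, colour by group) against the summed CPM of 15 choroid plexus markers (log axis). The 2 libraries at 1200 and 1868 CPM of choroid markers hold the 2 highest values of each gene.

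FACIT collagens, which decorate collagen fibrils, summed to 23.4 ± 3.26, 24.4 ± 1.51, 23.6 ± 1.42 and 28.7 ± 3.59 CPM in the same order of groups. Averaged changes ran from -0.17 to 0.33 log2, with 7 of 8 above 0 and none called. Col9a3 led them with 2.38 CPM per kb and stood highest in the choroid-rich libraries, at 9.516 and 13.41 CPM against 4.431 to 8.71 CPM elsewhere. Col22a1, known from tissue junctions, stood at 2.472, 2.722, 1.866 and 2.599 CPM in Control_5d and at 3.467, 3.686, 3.337 and 3.463 CPM in Dnmt3a2_5d. These groups did not overlap, and the change was 0.53 log2 (SE 0.23, edgeR adjusted p = 0.539). At 1 day its change was 0.13 (SE 0.23, edgeR adjusted p = 0.956). Col12a1 gave 0.37 at 5 days (SE 0.15, edgeR adjusted p = 0.473) and 0.03 at 1 day (SE 0.15). Col16a1 and Col9a2 had averaged changes of 0.08 (SE 0.10) and 0.18 (SE 0.18). Col19a1 gave -0.39 at 1 day (SE 0.21) and 0.05 at 5 days (SE 0.21), neither called.

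Of the transmembrane collagens, Col25a1, a neuronal collagen that binds amyloid, had 35.3 CPM on average and an averaged change of -0.07 log2 (SE 0.06, edgeR adjusted p = 0.710). Col23a1 and Col13a1 gave -0.001 and -0.13 (SE 0.12 and 0.18).

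ADAMTS proteases summed to 84.7 ± 6.73, 90.7 ± 10.1, 88.6 ± 5.10 and 91.7 ± 8.65 CPM in the same order. The lectican-cleaving proteases differed widely in level per length, with Adamts4 at 4.26, Adamts1 at 3.07 and Adamts5 at 0.0704 CPM per kb. Adamts4 stood between 13.93 and 27.04 CPM, with an averaged change of 0.15 log2 (SE 0.12, edgeR adjusted p = 0.679). Adamts1 and Adamts3, a protease of procollagen and of the VEGF-C pathway, gave averaged changes of 0.02 (SE 0.09) and -0.003 (SE 0.08). The smallest p values of the class were those of Adamts9 at 0.23 (SE 0.10, edgeR adjusted p = 0.372) and Adamts14 at 0.55 (SE 0.24, edgeR adjusted p = 0.346), the latter with a mean of only 0.672 CPM. Adamts8 gave -0.19 (SE 0.12), and Adamts13, which cuts von Willebrand factor, gave 0.75 at 1 day (SE 0.40, edgeR adjusted p = 0.757) and 0.02 at 5 days (SE 0.41). The averaged changes of 13 of the 17 ADAMTS genes were above 0 (-0.19 to 0.55 log2), and none was called.

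Taken over both directions, counts of non-overlapping groups were close to those of all genes. At 5 days the share higher with Dnmt3a2 was above that of all genes, and the share lower was below it. At 1 day 2 of the 90 genes did not overlap (2.22% against 3.43% of all genes), Has3 and Mmp2. Each was lower with Dnmt3a2, as were 1.76% of all genes without overlap. At 5 days 7 of 90 did not overlap (7.78% against 6.29%). Col11a1, Col22a1, Col4a2, Col6a5, Mmp14 and Ncan were higher with Dnmt3a2 (6 of 90 against 3% of all genes), and Lamb3 was lower (1 of 90 against 3.29%).

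Between 1 and 5 days after conditioning, edgeR called 0 of the 90 genes in the control libraries and 0 in the Dnmt3a2 libraries, where it called 0% of all genes in either case. DESeq2's Wald test also called 0 matrix genes, of 89 and 81 with an adjusted p (0% and 0.315% of all genes), and limma called 0 of 90 (0% of all genes). At an unadjusted p under 0.05 the counts were 3 of 90 in control (3.54% of all genes) and 5 of 90 in Dnmt3a2 (10.8% of all genes). Groups did not overlap for 3 of 90 genes in control (2.4% of all genes) and for 7 of 90 in Dnmt3a2 (5.17% of all genes). Lamb1 was in each of these counts, with 22.93, 21.67, 20.78 and 22.79 CPM in Control_1d and 25.49, 26.76, 24.19 and 23.71 CPM in Control_5d. In Dnmt3a2_1d it stood at 24.08, 22.01, 23.18 and 21.04 CPM and in Dnmt3a2_5d at 28.73, 27.21, 25.39 and 26.36 CPM. Lamb1 values did not overlap between days in either virus group. The change was 0.18 log2 in control (SE 0.06, edgeR adjusted p = 0.999) and 0.25 with Dnmt3a2 (SE 0.06, edgeR adjusted p = 0.239). The effect of Dnmt3a2 was also compared between days: edgeR called 0 of 90 genes for the difference (0% of all genes), DESeq2 called 0 of 89 (0.00592% of all genes) and limma 0 of 90 (0%), and 1 of 90, Col6a5, had an unadjusted p under 0.05 (2.13% of all genes).

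Genes that act with the matrix were described from 5 lists of 91 genes, 87 of them tested: protease inhibitors and the plasminogen system, collagen folding and crosslinking, basement membrane linkers, matrix receptors, and proteoglycans with hyaluronidases. None was called by edgeR in any of the 6 comparisons, and limma called none either. At an unadjusted p under 0.05, edgeR picked out 9 of 87 at 1 day, 11 at 5 days and 16 averaged, beside 7.17%, 8.01% and 12.1% of all genes. DESeq2 called 3 of 87 averaged, Itga11, Itga7 and Tll2, beside 3.09% of all genes, and none in the other comparisons. Itga11, the collagen-binding integrin α11, had the smallest averaged p among them, with means of 3.61 ± 0.756 and 5.16 ± 1.36 CPM at 1 day and 3.82 ± 0.687 and 5.45 ± 0.799 CPM at 5 days, in control and Dnmt3a2 libraries. Its averaged change was 0.51 log2 (SE 0.13, edgeR adjusted p = 0.0594). The leading genes of the other lists were Tll2, a procollagen protease, at 0.71 (SE 0.21, edgeR adjusted p = 0.1001), the urokinase receptor gene Plaur at 0.95 (SE 0.33, edgeR adjusted p = 0.185), the chondroitin sulfotransferase gene Chst11 at -0.13 (SE 0.05, edgeR adjusted p = 0.223) and the basement membrane linker Smoc1 at 0.20 (SE 0.08, edgeR adjusted p = 0.251). Averaged changes were above 0 for 50 of the 87 genes, beside 52.6% of all genes. The counts were 47 at 1 day (50.9% of all genes) and 60 at 5 days (52.8% of all genes). At 5 days 22 of 24 matrix receptors and 16 of 18 collagen folding and crosslinking genes were above 0. At 1 day these counts were 13 of 24 and 12 of 18, and averaged they were 16 of 24 and 15 of 18. The other lists had 5 of 11 protease inhibitor, 8 of 15 linker and 9 of 19 proteoglycan genes above 0 at 5 days. The part of the choroid-rich libraries in these counts was not tested.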

How the data were processed

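Total RNA of dorsal hippocampus was sequenced on a BGISEQ-500, per the labels. The authors deposited estimated counts per gene, with 26.2% of values not whole, and log2 CPM values after their filter on low counts. Per the submitters' processing notes, the tools were kallisto 0.4.6, Trim Galore 0.6.4 and edgeR 3.17, with genome build GRCm38.p6. Whether counting used strand, and the annotation release, are not given in the sources used. The deposited log2 values were recomputed from the counts with filterByExpr and TMM to within 5.329e-15.

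Of 55385 gene identifiers, 55144 were named with GENCODE M21. Counts were rounded, filtered by group, scaled with TMM and fitted in 1 robust quasi-likelihood model of all 16 libraries (edgeR 4.0.16, R 4.3.3), which tested 16899 genes. Rounding left a gene set that differs from the authors' by 15 of their genes. Adjusted p-values are Benjamini-Hochberg over all genes tested, in 6 comparisons. CPM per kb uses the longest transcript, since isoforms were not resolved. Promoter bases came from RefSeq. The fit was also run on counts simulated with its own estimates of spread. That run held no choroid-rich or interferon-rich libraries, so it does not show how the fit behaves with them.

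Alternatives were DESeq2's size factors and Wald test (1.42.0), limma-trend (3.58.1) on the deposited log2 values, other filters, a block for the replicate number, a fit of only the groups compared, a choroid plexus score as covariate, the 2 choroid-rich or 3 interferon-rich libraries left out, and each library left out. Genes were named if called, if among the 3 most abundant per kb of their class, if among the 2 with the smallest p of their class for an effect of Dnmt3a2, or as net genes and Fn1, with 1 gene per partner list. Some others, such as Mmp9, Adamts5, Col8a2 and the collagen IV pairs, were chosen after their values were seen. The members and lists were chosen with earlier results of these data known.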

Additional observations from a re-analysis of the deposited data

Results flagged for a closer look

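In 14 of 200 groups of 4 libraries (7.0%, where chance gives about 1 in 20) among the 50 named matrix genes, a single library lay far from the other 3. Replicate 1 of Dnmt3a2_1d, rich in choroid plexus transcripts, was the highest of its group for Col8a1 (2.164 CPM, others 0.3100 to 0.5199), Mmp14 (20.10 CPM, others 11.23 to 12.60), Lamc1 (32.91 CPM, others 28.42 to 28.98) and Ncan (279.8 CPM, others 248.0 to 251.4). Replicate 1 of Dnmt3a2_5d, the other choroid-rich library, was the highest for Col8a1 (3.599 CPM, others 0.1345 to 0.2962).

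Replicate 4 of Dnmt3a2_1d was the lowest of its group for Col4a1 (29.19 CPM, others 31.93 to 32.48) and the highest for Col6a2 (2.946 CPM, others 1.894 to 2.013). In Dnmt3a2_5d, replicate 2 was the highest for Ncan (290.8 CPM, others 270.4 to 272.4) and replicate 3 for Col26a1 (1.402 CPM, others 0.9543 to 1.009). Replicate 4 of Control_1d was the highest for Col13a1 (1.423 CPM, others 0.7577 to 0.8426). In Control_5d, replicate 3 was the highest for Hapln4 (126.8 CPM, others 96.04 to 98.14) and the lowest for Col13a1 (0.5985 CPM, others 0.7968 to 0.8352), replicate 2 was the highest for Col6a1 (4.050 CPM, others 2.183 to 2.426), and replicate 4 was the lowest for Lamc1 (24.30 CPM, others 29.75 to 30.64).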

How the results depend on the processing

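The number of matrix genes called for the averaged effect of Dnmt3a2 was 1 (Mmp2). It was 3 with DESeq2's Wald test, and 0 to 2 with each library left out. With the replicate block it was also 1, but that gene was Tnr (adjusted p = 0.0357), and Mmp2 stood at an adjusted p of 0.050007, just over the threshold. At 1 day the count of 0 became 1 with DESeq2's Wald test, and at 5 days it became 1 without the 2 choroid-rich or the 3 interferon-rich libraries. In each of these cases the gene was Mmp2, and the cause was not tested. The counts of 0 between days, and for the difference between days, stayed 0 in every alternative run. Over 57 changes of named genes, 1428 of 1453 alternative values kept direction and side of the threshold. Apart from the averaged change of Mmp2, none of these changes was called in the main fit, so keeping their side says little. The averaged change of Mmp2 kept its side in 18 of 25 alternatives. Reversed values were those of Fn1 at 1 day (0.0571 without the 3 interferon-rich libraries, and -0.134 to 0.0811 with each library left out), of Col23a1 at 5 days (-0.206 to 0.00248 with each library left out, above 0 without Dnmt3a2_5d replicate 4) and of the averaged change of Col8a1 (-0.15 with the choroid score as covariate, -0.48 without the choroid-rich and -0.62 without the interferon-rich libraries).

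These values do not settle whether the replicate numbers pair the libraries. Among 24 pairs of libraries of equal number in different groups, 8 correlated above 0.1 (-0.086 to 0.381). Best correlation was with their own number for 6 of 16 libraries. The choroid-rich and the interferon-rich libraries were all replicate 1. Whether libraries of equal number shared a batch was not tested. A single count was worth 0.0329 to 0.0352 CPM, so differences smaller than that cannot be resolved in 1 library.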
